A study of Mus musculus with 7 samples.

Results

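Genes through which leptin and insulin signal were read in mouse hypothalamus with and without Creb in Pomc-expressing cells. They are the leptin receptor gene Lepr, its kinase and transcription factor genes Jak2 and Stat3, the feedback genes Socs3 and Ptpn1, the insulin receptor gene Insr with the adaptor genes Irs1 and Irs2, the transcription factor gene Foxo1, and the insulin-like growth factor receptor gene Igf1r. Members are all probe sets that the array's platform annotation gives to one of these symbols alone, which makes 29 of the 45037 probe sets tested and 10 of 18193 genes. One Affymetrix mouse430_2 array was run for each of 7 hypothalami samples of mice aged 3 months, 4 labelled wild type and 3 labelled Creb-PomcCre-/-, here called knockout. In the knockout the Pomc promoter drives the Cre recombinase that deletes Creb, the gene of a transcription factor activated by cyclic AMP, while the tissue on the array is the whole hypothalamus. The labels give no strain and do not say whether wild-type mice carried a floxed allele or Cre, or whether a sample pools mice. Replicates are biological per the labels, numbered 1 to 4 and 1 to 3, and nothing says that each is a separate mouse, so p-values measure the spread between these samples. Xist and Y-linked transcripts read 2 wild-type arrays as female and 2 as male, and 1 knockout array as female and 2 as male.

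Leptin, the hormone of fat tissue, acts in the hypothalamus on a receptor with no enzyme activity of its own. The bound receptor activates the kinase JAK2, which lets the transcription factor STAT3 enter the nucleus, and among the genes STAT3 turns on is Socs3, whose product blocks the receptor. Insulin and insulin-like growth factor receptors are kinases that act through IRS proteins and phosphatidylinositol 3-kinase, and this branch keeps FOXO1 out of the nucleus. PTPN1 removes phosphate from both JAK2 and the insulin receptor. In Pomc neurons of the arcuate nucleus both hormones raise or prolong melanocortin signalling, which lowers food intake.

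Values are log2 expression values, so that a difference of 1 means a fold of 2, and a level read by one probe set is not comparable with that read by another. All differences are knockout minus wild type. A gene is represented by its brightest probe set, and tests are by limma with a Benjamini-Hochberg threshold of 0.05 over all genes or, for further probe sets, over all probe sets. The tissue read as hypothalamus on every array, with the orexin gene Hcrt at 12.02 to 12.78, Pmch at 13.66 to 13.97 and the oxytocin gene Oxt at 12.24 to 12.80, while the regional factor gene Nkx2-1 was dim at 5.50 to 5.80. The brightest probe sets of Creb1 and Pomc differed by -0.04 ± 0.054 (SE) and 0.21 ± 0.24 (SE), and neither passed (limma over probe sets, adjusted p = 0.816 and 0.784). Further Creb1 probe sets differed by 0.02, 0.09, 0.15, 0.18 and -0.11, so that most were higher in the knockout. Of these, only the probe set at 0.02 was bright, at the 84.83th percentile of the array. The rest were dim, between the 0.84th and the 37.05th percentile. In bulk tissue, fewer cells of a type and less RNA per cell cannot be told apart. Wild-type arrays 2 and 3 stood apart from the others, with the highest thalamic marker score (0.69, array 2) and the highest meningeal marker score (1.04, array 3), where a score is the median over the markers of the deviation from each marker's own mean.

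A stretch upstream of Irs1 and one upstream of Socs3 are shown because they hold the letters that the deleted factor, or the factor at the end of the leptin branch, is known to bind. RefSeq windows of the 250 bases before the annotated start (GRCm38.p6) were at hand for 9 of the 10 members, with 10 windows in all since Lepr has several starts. The full cyclic AMP response element TGACGTCA, searched on both strands, was in 0 of these windows, against 1.55% of 32851 windows of all genes. Its short form TGACG, which the full element contains, was in 1 of them, that of Irs1, against 17.8% of all windows. The site for STAT factors, TTCNNNGAA, was in 1 window, that of Socs3, against 7.02% of all windows, and the FOXO letters TGTTTAC were in 0, against 3.17%. A match of letters is a description and not a bound site. The Irs1 window lies at chr1:82291440-82291689 on the minus strand, with the short form in capitals as it reads on this strand, 118 to 114 bases before the start. The Socs3 stretch of 29 bases lies at chr11:117969502-117969530 on the minus strand, with the STAT letters in capitals, 154 to 146 bases before the start.
Irs1: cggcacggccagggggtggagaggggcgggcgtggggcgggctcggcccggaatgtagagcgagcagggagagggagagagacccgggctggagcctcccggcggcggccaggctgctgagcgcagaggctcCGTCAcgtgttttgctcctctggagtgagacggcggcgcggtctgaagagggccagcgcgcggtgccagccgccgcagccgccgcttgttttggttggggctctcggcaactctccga
Socs3: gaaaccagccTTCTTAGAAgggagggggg

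Across the 10 members no gene passed the threshold (0 of 10, where 0.0110% of all genes passed), and neither did any of the 29 probe sets (0.00666% of all probe sets). Over all genes, 51.5% were higher in the knockout, the share to set beside each count of higher or lower genes. Of the 10 genes, 5 were higher and 5 lower in the knockout, with folds between 0.82 for Igf1r and 1.21 for Socs3. Adjusted p-values ran from 0.272 to 0.959 (limma). An unadjusted p under 0.05 was reached by 4 of the 10, Stat3 and Socs3 on the higher side and Insr and Igf1r on the lower, against 11.7% of all genes. Groups did not overlap for 3 of the 10, Stat3, Socs3 and Igf1r, against 12.1% of all genes. Over the 29 probe sets, 5 had an unadjusted p under 0.05, against 10.6% of all probe sets, and 4 did not overlap, against 11.0%. The median difference of the 10 genes was -0.018, beside 0.0036 over all genes, and their median absolute difference was 0.107, beside 0.0683. The plot of members by array shows the values behind these counts.

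**Figure D1:**
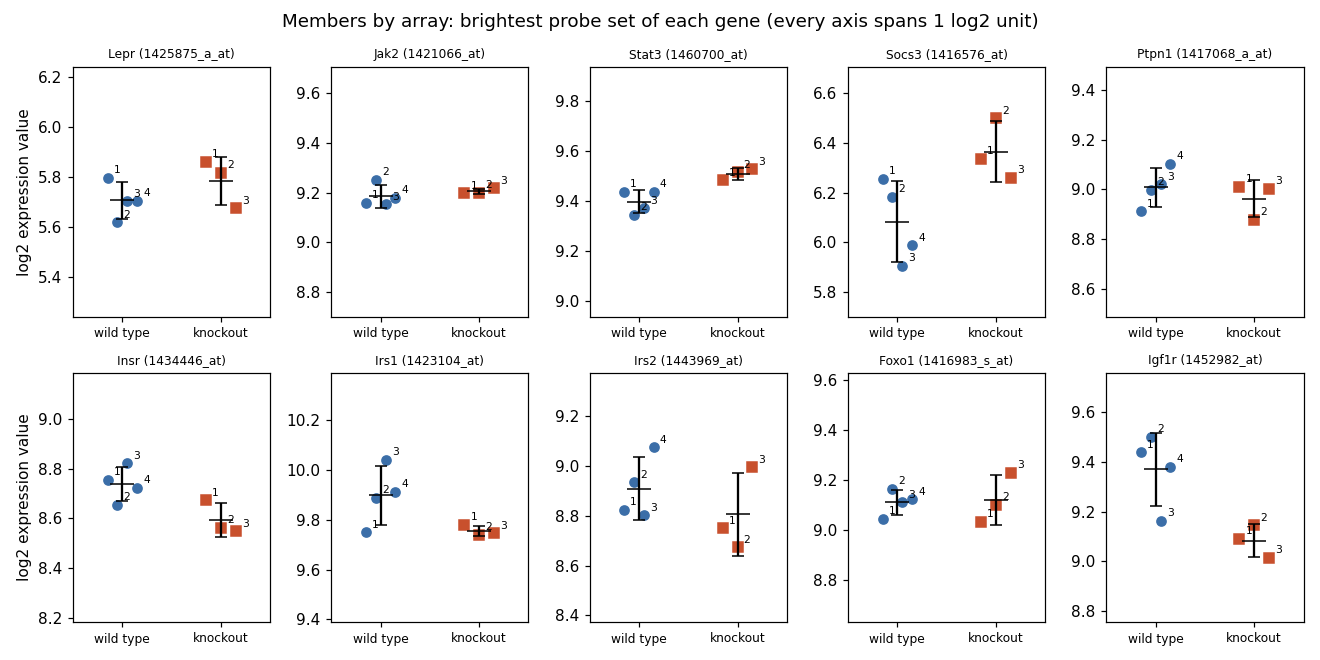
Log2 expression value of the brightest probe set of each member on every array (numbers are replicate numbers), with the mean and SD of 4 wild-type and 3 knockout arrays; every vertical axis spans 1 log2 unit. Knockout arrays lie above all wild-type arrays for Stat3 and Socs3 and below them for Igf1r, and the groups overlap for the other members.

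Igf1r, the receptor for insulin-like growth factor 1, had the smallest p of the members. Its brightest probe set, 1452982_at, read 9.44, 9.50, 9.16 and 9.38 in wild type and 9.09, 9.14 and 9.01 in the knockout. The knockout arrays were all lower, although wild-type array 3 lay just above knockout array 2. The difference was -0.29 ± 0.079 (SE; 95% interval -0.47 to -0.11), a fold of 0.82, short of the threshold (limma, adjusted p = 0.272). The other Igf1r probe sets lay on either side of 0. The bright probe sets 1428967_at and 1426565_at differed by -0.08 ± 0.086 (SE) and -0.10 ± 0.061 (SE), and 1426565_at read 7.63, 7.61, 7.51 and 7.69 in wild type against 7.51, 7.50 and 7.51 in the knockout. The dim 1452108_at and 1446303_at differed by 0.18 ± 0.095 (SE) and 0.05 ± 0.14 (SE). With the mean of all 5 probe sets the Igf1r difference was -0.048, against -0.29 with the brightest.

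Insr, the insulin receptor gene, showed the same split by brightness. Its probe set 1434446_at read 8.75, 8.65, 8.82 and 8.72 in wild type and 8.67, 8.56 and 8.55 in the knockout. The knockout arrays were the lower ones, except that knockout array 1 lay just above wild-type array 2. The difference was -0.14 ± 0.057 (SE; 95% interval -0.27 to -0.01), with an adjusted p of 0.391 by limma. The other Insr probe sets, 1450225_at at 4.24 to 4.62 and 1421380_at at 3.74 to 4.20, are among the dimmest of the array and differed by 0.04 and 0.18. The mean of the 3 probe sets differed by 0.025, opposite in sign to the brightest. Dim probe sets were a little higher in the knockout over the whole array: with all probe sets in 4 classes of equal size by level, the median difference was 0.034 in the dimmest class, 0.023 in the second, -0.0060 in the third and -0.012 in the brightest. Member probe sets split into 2 higher and 2 lower in the dimmest class, 7 and 1 in the second, 3 and 4 in the third, and 4 and 6 in the brightest. What part this trend has in the split was not tested.

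The adaptors that carry the signal from both receptors each had a single probe set. Irs1 read 9.75, 9.89, 10.04 and 9.91 in wild type and 9.78, 9.74 and 9.75 in the knockout. Knockout arrays kept within 0.039 of each other, while wild-type arrays spanned 0.292, with array 1 at the knockout level. The difference was -0.14 ± 0.064 (SE; 95% interval -0.29 to 0.0013), short of the threshold (limma, adjusted p = 0.431). Irs2, the adaptor whose loss in mice is known to raise body weight, read 8.82, 8.93, 8.80 and 9.07 against 8.75, 8.67 and 8.99. The groups overlapped and the difference was -0.10 ± 0.092 (SE; 95% interval -0.31 to 0.11; limma, adjusted p = 0.679). Without knockout array 3, the high one, it was -0.20, and without knockout array 2 it was -0.037.

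Foxo1, which insulin signalling keeps inactive, was level between groups on its brightest probe set. That probe set, 1416983_s_at, read 9.04, 9.17, 9.11 and 9.12 in wild type and 9.03, 9.10 and 9.23 in the knockout. The difference was 0.01 ± 0.057 (SE), with an adjusted p of 0.959 by limma. For this probe set, in whole tissue, the 95% interval of -0.12 to 0.14 runs from a fold of 0.92 to 1.10. The other 3 Foxo1 probe sets differed by -0.02, 0.12 and -0.11, with 95% intervals that reached down to -0.31 and up to 0.44. The 0.12 belonged to 1416982_at, which varied widely within wild type, from 6.58 on array 1 to 7.21 on array 4, more than it differed between groups.

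**Figure D2:**
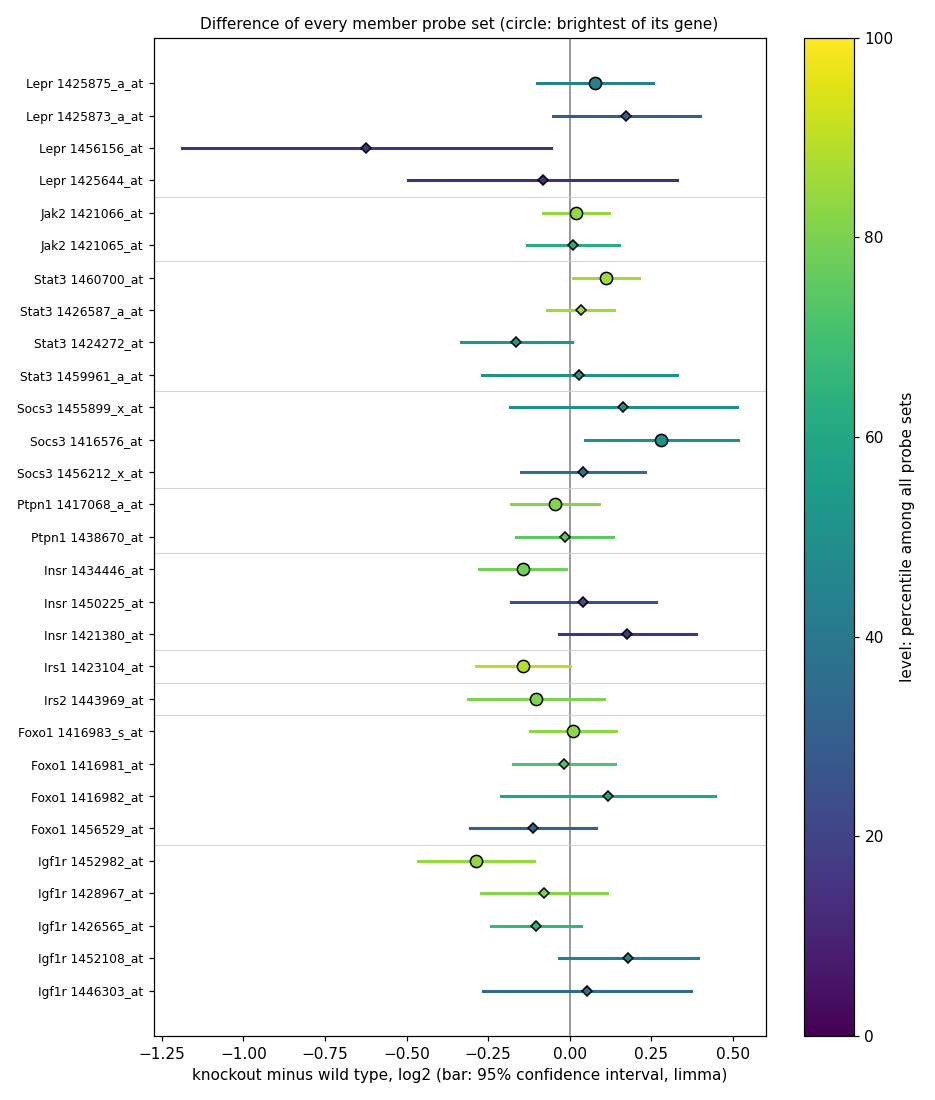
Knockout minus wild-type log2 difference of each of the 29 member probe sets with its 95% confidence interval (limma over all probe sets); large circles mark the brightest probe set of a gene and colour gives the level as a percentile among all probe sets. Intervals that leave out 0 are those of Lepr 1456156_at, Stat3 1460700_at, Socs3 1416576_at, Insr 1434446_at and Igf1r 1452982_at, and probe sets of Lepr, Stat3, Insr, Foxo1 and Igf1r lie on both sides of 0.

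On the leptin side, the feedback inhibitor Socs3 had the largest difference toward higher values among the 10 genes, on a probe set of middling level. Probe set 1416576_at read 6.25, 6.18, 5.91 and 5.99 in wild type and 6.34, 6.50 and 6.26 in the knockout. All knockout arrays were higher, but knockout array 3 and wild-type array 1 were nearly equal. The difference was 0.28 ± 0.10 (SE; 95% interval 0.04 to 0.52), a fold of 1.21, short of the threshold (limma, adjusted p = 0.368). The probe sets 1455899_x_at and 1456212_x_at differed by 0.16 ± 0.15 (SE) and 0.04 ± 0.084 (SE), with overlap. On both of these knockout array 1 was the highest of all arrays, at 6.65 and 5.44, and without it they differed by -0.017 and -0.022. Their names end in x, the array maker's mark for probe sets with probes that may also read other transcripts.

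Stat3 had 2 bright probe sets and 2 of middling level, which did not move together. The brightest, 1460700_at, read 9.44, 9.34, 9.37 and 9.44 in wild type and 9.48, 9.51 and 9.53 in the knockout, with no overlap. It differed by 0.11 ± 0.042 (SE; 95% interval 0.01 to 0.21), a fold of 1.08 (limma, adjusted p = 0.375). The equally bright 1426587_a_at differed by 0.03 ± 0.046 (SE), and 1424272_at by -0.16 ± 0.075 (SE). That last probe set read 6.46, 6.45, 6.39 and 6.53 against 6.41, 6.27 and 6.20, so that knockout array 1 alone lay within the wild-type range. The mean of the 4 Stat3 probe sets differed by 0.0025.

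Jak2 and Ptpn1 were close between groups. Jak2 read 9.16, 9.25, 9.15 and 9.18 in wild type and 9.20, 9.20 and 9.22 in the knockout, a difference of 0.02 ± 0.043 (SE; 95% interval -0.08 to 0.12; limma, adjusted p = 0.888). Its other probe set differed by 0.01. Ptpn1, the phosphatase known as PTP1B, read 8.91, 9.0, 9.02 and 9.10 against 9.01, 8.88 and 9.0, a difference of -0.05 ± 0.059 (SE; 95% interval -0.18 to 0.09; limma, adjusted p = 0.793). Without knockout array 2 it was -0.0020, and without wild-type array 1 it was -0.077. Its other probe set differed by -0.01. As folds, the intervals run from 0.948 to 1.08 for Jak2 and from 0.883 to 1.06 for Ptpn1.

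Lepr was dim on all 4 probe sets, between the 13.2th and the 43.2th percentile of the array, and no source at hand says which receptor form each of them reads. The brightest, 1425875_a_at, read 5.80, 5.62, 5.70 and 5.71 in wild type and 5.86, 5.82 and 5.67 in the knockout. Its difference was 0.08 ± 0.078 (SE; 95% interval -0.10 to 0.25; limma, adjusted p = 0.716), and 1425873_a_at differed by 0.17 ± 0.10 (SE). The largest difference of any member probe set was that of the dimmer 1456156_at, which read 3.70, 4.17, 4.77 and 3.80 in wild type and 3.75, 3.61 and 3.10 in the knockout. It differed by -0.62 ± 0.25 (SE; 95% interval -1.19 to -0.06), short of the threshold (limma, adjusted p = 0.436). Wild-type arrays 3 and 2 were the highest and knockout array 3 the lowest, while wild-type arrays 1 and 4 lay at the level of knockout array 1. Without knockout array 3, 1456156_at differed by -0.43. The dimmest, 1425644_at, also had its highest values on wild-type arrays 3 (4.29) and 2 (3.85), and differed by -0.08.

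Leptin receptors are also known from meninges, vessels and choroid plexus, so marker levels of these tissues are given beside the Lepr values. Meningeal and fibroblast markers were lower in the knockout for 18 of 20 genes, with array scores of -0.32, 0.28, 1.04 and -0.29 in wild type and -0.38 to -0.23 in the knockout. The order of wild-type arrays 3 and 2 above all others was thus the same for these markers and for Lepr 1456156_at and 1425644_at. The 2 brighter Lepr probe sets each had their lowest value on one of those arrays, 5.62 on array 2 for 1425875_a_at and 4.43 on array 3 for 1425873_a_at. Without wild-type array 3, 1456156_at differed by -0.41 and 1425644_at by 0.089, and without wild-type arrays 2 and 3 by -0.26 and 0.21. Endothelial and mural markers were lower for 14 of 19 genes, with scores from 0.0054 to 0.076 in wild type and -0.14 to 0.037 in the knockout. Choroid plexus markers were lower for 10 of 13, with scores from -0.077 to 0.069 and -0.12 to -0.048. Only 3 of these 13 markers lay above the median level of the array. The male wild-type arrays are these same arrays 2 and 3, so sex and this standing apart cannot be told apart in wild type. Within males 1456156_at differed by -1.11, and within females, with a single knockout array, by -0.0039. What part these tissues have in the Lepr values was not tested.

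**Figure D3:**
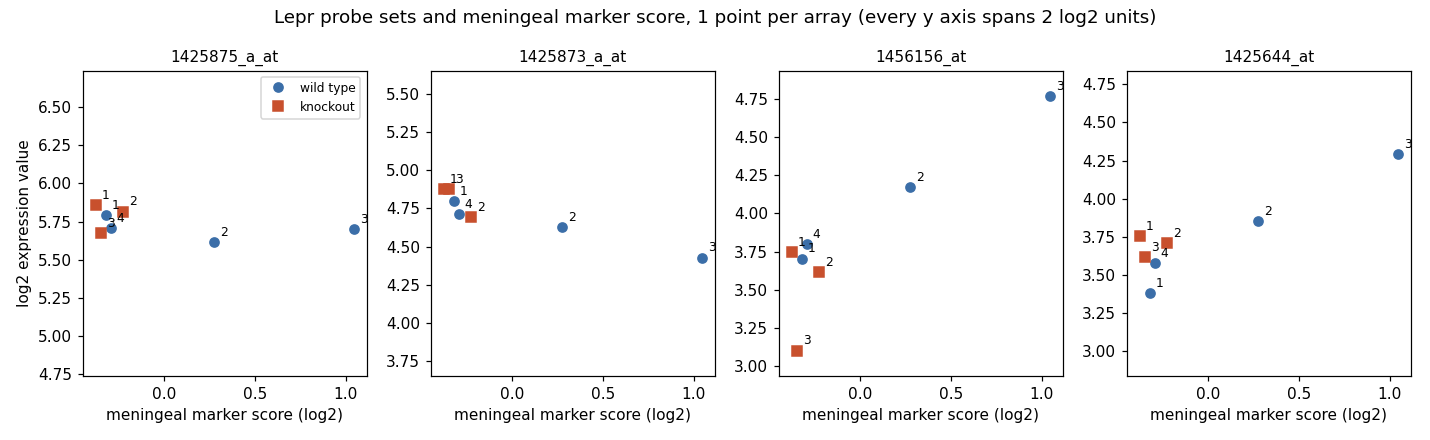
Log2 expression value of each Lepr probe set against the meningeal and fibroblast marker score of the same array, with 1 point per array labelled by replicate number; every vertical axis spans 2 log2 units. Wild-type arrays 2 and 3 have the highest scores (0.28 and 1.04) and the highest values of 1456156_at (4.17 and 4.77) and 1425644_at, while 1425873_a_at is lowest on these arrays.

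Other genes of the JAK-STAT branch were described from a list of 32 that leaves out the members, of which 31 were measured. None passed, 13 were higher and 18 lower, and the median was -0.014 beside 0.0036 over all genes. An unadjusted p under 0.05 was reached by 2 of the 31, both lower, where 11.7% of all genes did. Tyk2, a kinase related to JAK2, read 7.30, 7.13, 7.22 and 7.46 against 6.96, 7.12 and 7.06, with knockout array 2 barely below wild-type array 2. The difference was -0.23 ± 0.087 (SE), and its other probe set differed by 0.02. Socs7, a relative of Socs3 that binds insulin receptor substrates, differed by -0.11 ± 0.045 (SE) on its brightest probe set, and by 0.0100 with the mean of all 4. Pias3, an inhibitor of STAT3, differed by -0.14 ± 0.063 (SE) and its relative Pias4 by 0.10 ± 0.054 (SE), with no overlap for Pias4 (limma, adjusted p of these 4 genes from 0.375 to 0.488). The other Pias3 probe set differed by -0.08, and further Pias4 probe sets by -0.05 and 0.03, all with overlap. Groups did not overlap for 3 of the 31 genes, against 12.1% of all genes. The list's median was above 0 on repeated quantile normalization (0.0027, with 16 higher), with the mean of all probe sets (0.0040) and without knockout array 2 (0.00028).

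The insulin and insulin-like growth factor list, again without the members, had 44 genes, of which 38 were measured. None passed, 30 were lower and 8 higher, where 51.5% of all genes were higher. The median was -0.051, beside 0.0036 over all genes. An unadjusted p under 0.05 was reached by 5 of the 38, with 2 higher and 3 lower, where 11.7% of all genes did. Igf2r, the receptor that clears insulin-like growth factor 2, was among them at -0.16 and is named after its values were seen. Tsc2, which restrains the growth kinase mTOR, read 8.79, 8.81, 8.78 and 8.79 in wild type and 8.61, 8.58 and 8.57 in the knockout. The groups lay well apart beside their spread, with a difference of -0.21 ± 0.042 (SE; limma, adjusted p = 0.207). Mtor itself read 9.83, 9.80, 9.82 and 9.83 against 9.77, 9.69 and 9.70, a difference of -0.10 ± 0.038 (SE; limma, adjusted p = 0.372), with its dimmer probe sets at 0.01 and -0.08. Insrr, a receptor related to the insulin receptor, read 5.06, 4.95, 5.04 and 5.04 against 5.35, 5.43 and 5.37 on a dim probe set, a difference of 0.36 ± 0.066 (SE; limma, adjusted p = 0.185). Pik3cd, a catalytic subunit of phosphatidylinositol 3-kinase, differed by 0.31 ± 0.092 (SE; limma, adjusted p = 0.304) on the brightest of its 6 probe sets, 4 of which differed the other way. That probe set was at the 98.6th percentile of the array, and the others lay between the 11.0th and the 54.6th. The Pik3cd difference was 0.014 with the mean of all 6 and 0.20 without knockout array 3.

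Lower values also prevailed among neuron markers, of which 17 of 19 were lower, with array scores of -0.0032 to 0.088 in wild type and -0.052 to -0.022 in the knockout. The part of this in the insulin list was not tested. The list's median stayed between -0.065 and -0.026 in all 17 settings tried. Igf2, a growth factor that binds these receptors and is known from meninges, was chosen after its values were seen because it lay farthest from 0 of all genes in the 5 lists. It read 8.78, 10.13, 11.24 and 9.19 in wild type and 8.91, 9.22 and 8.61 in the knockout, with wild-type arrays 3 and 2 the highest, as for the meningeal score. The difference was -0.92 and the groups overlapped.

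**Figure D4:**
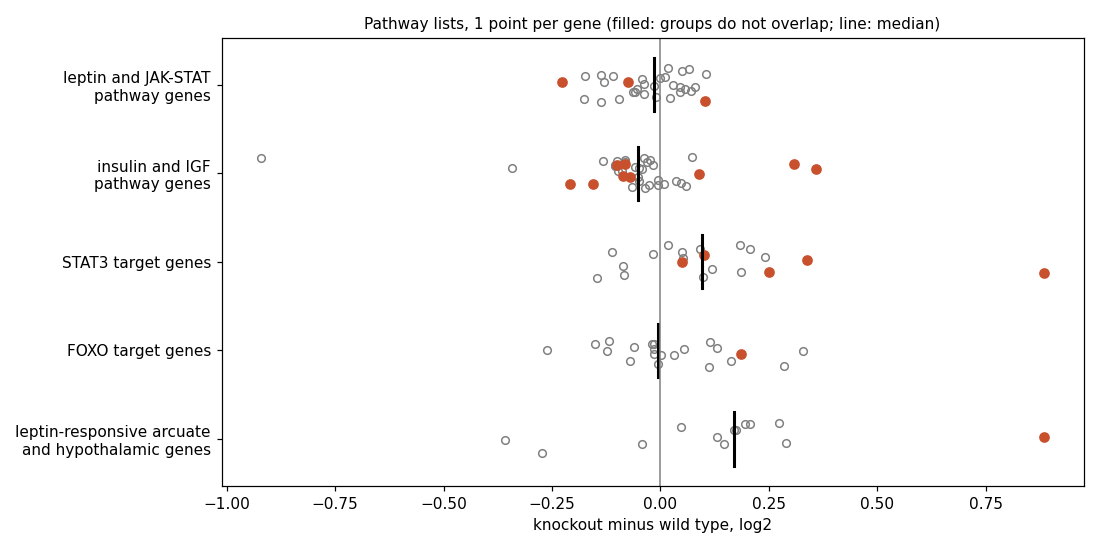
Knockout minus wild-type log2 difference of every measured gene of the 5 lists, 1 point per gene at the brightest probe set; filled points are genes whose groups do not overlap and black lines are list medians. Medians lie at -0.014, -0.051, 0.095, -0.0046 and 0.17 from top to bottom, and Serpina3n, in 2 lists, lies at 0.89.

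Genes downstream of STAT3 were read as 20 known targets, all measured. None passed, 15 were higher, where 51.5% of all genes were, and the median was 0.095, beside 0.0036 over all genes. An unadjusted p under 0.05 was reached by 3 of the 20, all higher, where 11.7% of all genes did. Serpina3n, a protease inhibitor of reactive astrocytes that leptin is known to raise in the hypothalamus, read 9.14, 9.03, 7.87 and 8.09 in wild type and 9.21, 9.84 and 9.20 in the knockout. All knockout arrays were higher, but wild-type arrays 1 and 2 came close to them. The difference was 0.89 ± 0.32 (SE; limma, adjusted p = 0.362). Wild-type arrays 3 and 4 were also the lowest for Socs3 on its brightest probe set. Gfap, the filament gene of astrocytes, read 8.82, 8.53, 8.88 and 8.58 against 8.90, 8.94 and 9.02, a difference of 0.25 ± 0.091 (SE; limma, adjusted p = 0.362), and its other 2 probe sets differed by 0.24 and 0.27. Saa3, an acute-phase gene, and Bcl3, a regulator of nuclear factor kappa B, were dim and differed by 0.34 ± 0.082 (SE) and 0.24 ± 0.12 (SE; limma, adjusted p = 0.267 and 0.468). Without knockout array 1, Bcl3 was at 0.15.

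Astrocyte, tanycyte and ependymal markers, among them Gfap, were higher for 11 of 18 genes, with scores of -0.072 to 0.012 in wild type and -0.038 to 0.071 in the knockout. Pituitary and blood markers were higher for 12 of 14, with scores of -0.18 to -0.0086 and -0.00072 to 0.36. Only 2 of these 14 markers lay above the median level of the array. Their score was highest on knockout array 2, where Serpina3n and the brightest Socs3 probe set were also highest. The other Socs3 probe sets were highest on knockout array 1. Microglial markers were lower for 14 of 19, with scores of 0.034 to 0.080 and -0.15 to 0.064. Their part in the values of the STAT3 targets was not tested. The median of the target list ranged from 0.031, without wild-type arrays 2 and 3, to 0.13, without wild-type array 4, and was 0.045 without wild-type array 2 alone and 0.054 without knockout array 3. With array weights the median was 0.049. Of the 20 targets, 12 were higher with array weights or without wild-type array 2, and 17 without wild-type array 3. With the dimmer probe sets dropped, 11 targets were left, 8 of them higher, with a median of 0.053.

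**Figure D5:**
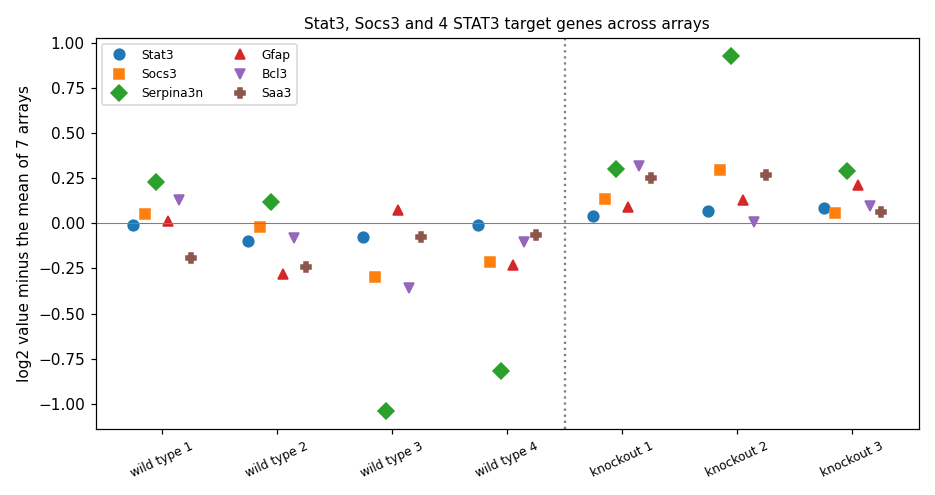
Log2 value of Stat3, Socs3 and 4 STAT3 target genes on each array, minus the gene's mean over the 7 arrays; points are offset sideways by gene. Serpina3n spans the widest range, from 7.87 on wild-type array 3 to 9.84 on knockout array 2 before centring. It and Socs3, shown by its brightest probe set, are lowest on wild-type arrays 3 and 4.

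FOXO targets had no steady direction across settings. All 21 listed genes were measured, with 10 higher and 11 lower and the median at -0.0046, 0 past the threshold and 2 with an unadjusted p under 0.05, where 11.7% of all genes had one. Without knockout array 1 the median was 0.067, with 14 higher and 7 lower, and without knockout array 3 it was -0.039, with 8 higher and 13 lower. Pck1, the gluconeogenic enzyme gene, was near the floor of the array at 3.17 to 3.55 and differed by 0.18 ± 0.068 (SE). Sod2, the mitochondrial superoxide dismutase gene, differed by 0.11 ± 0.044 (SE), while another of its bright probe sets differed by -0.17. Gadd45a, a stress response gene, and Txnip, a regulator of glucose uptake, differed by 0.16 ± 0.080 (SE) and -0.26 ± 0.14 (SE; limma, adjusted p of these 4 genes from 0.367 to 0.497). Gadd45a was at 0.083 without knockout array 3, and Txnip at -0.16 without wild-type array 3. The other, dimmer Txnip probe set differed by 0.13, and with the mean of all its probe sets Txnip was at -0.066.

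Of 17 hypothalamic genes known to respond to leptin, 13 were measured, 10 higher and 3 lower, with a median of 0.17 and 0 past the threshold. Over all genes, 51.5% were higher and the median was 0.0036. The list mixes genes without regard to whether leptin raises or lowers them, so its count and median give no direction of leptin response. Serpina3n alone had an unadjusted p under 0.05, or 1 of the 13, where 11.7% of all genes did. Next were Nhlh2, a transcription factor gene of arcuate and other neurons, at 0.17 ± 0.080 (SE), the stress peptide gene Crh at -0.36 ± 0.18 (SE) and the neurotrophin gene Bdnf at 0.17 ± 0.092 (SE; limma, adjusted p of these 3 from 0.451 to 0.489). Without knockout array 2, Crh was at -0.166 and Bdnf at 0.081, and without knockout array 1 Nhlh2 was at 0.11. Hypothalamic and arcuate markers, some of them the same genes, were higher for 14 of 17, with scores of -0.26 to 0.12 in wild type, lowest on array 2, and -0.043 to 0.13 in the knockout. The leptin-responsive median was 0.073 without wild-type arrays 2 and 3 and 0.080 without array 2 alone, and 0.11 without knockout array 1. The part of tissue make-up in these values was not tested.

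The genes most like Lepr and Socs3 across the 7 arrays were found by the mean absolute difference of values centred on each gene's mean. Of the 18192 other genes, those with symbols of the clone or prediction type were left out, and the median gene is over the rest. The pattern used also left out other symbols that start with a capital letter and a digit. For the brightest Lepr probe set these were Myo1a, Dad1 and Asphd2, at 0.013, 0.014 and 0.017, where the median gene lay at 0.097. For Socs3 they were Pitpnm2os1, Hoxb5os and Spib, at 0.047, 0.048 and 0.051, where the median gene lay at 0.17. They were picked for this likeness over 7 points.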

How the data were processed

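The authors deposited log2 expression values of 7 arrays. The submitters' processing notes list R 2.10.0, affy and RMA but no settings. RMA usually makes the arrays' distributions equal and calls nothing detected or absent, so dim values carry little weight. Array medians ran from 6.19 to 6.24 and correlations between arrays from 0.994 to 0.997. The number of arrays limits the precision, and the median SE of a gene's difference was 0.073.

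Of 45101 probe sets, 64 controls were left out. Of the rest, 34945 carried a single symbol, 932 several and 9160 none. limma 3.58.1 in R 4.3.3 (lmFit, eBayes with trend, two-sided, Benjamini-Hochberg) was fitted on all 45037 probe sets and on 18193 genes by their brightest probe set. It was also run on simulated data with a change larger than any member difference here. That run cannot show whether differences of the sizes reported here would be found. SDs are over arrays and SEs and 95% intervals are limma's. No set test was run. Genes were named by a rule: all members, up to 4 per pathway list by smallest p, the 3 genes most like Lepr and Socs3, Creb1 and Pomc. The members, lists and alternatives were chosen with earlier results of these data known. Some listed genes were not analysed here. No source pairs the arrays, but arrays of the same number deviated together (correlations 0.258, 0.114 and 0.156 over probe sets, against -0.240 to 0.0937 for other pairs; the arrays of each same-numbered pair are also of the same sex), so the replicate number was also fitted as a block. Other settings tried were a dim filter, no variance trend, array weights, other scalings, another probe set rule, sex, other thresholds and left-out arrays. Python 3.11.15 and matplotlib 3.10.9 served for tables and plots.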

Additional observations from a re-analysis of the deposited data

Results flagged for a closer look

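One of the probe sets named in the text had a wild-type array far from the other 3. Insrr read 4.95 on wild-type array 2 against 5.04 to 5.06 on the others, a gap of 0.871 of the group's range, past Dixon's critical value for 4 samples. Of 48 probe sets looked at, 1 met this rule, and chance alone sets apart about 1 group in 20. Without that array the Insrr difference was 0.33, beside 0.36 with it.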

How the results depend on the processing

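No member gene, member probe set or pathway gene passed the adjusted threshold in any alternative fit, the replicate block included, which gave 0 of each and changed no call, and 0 passed at an adjusted p of 0.1. At an unadjusted p under 0.05 there were 4 member genes, 5 member probe sets and 12 of 122 pathway genes (9.84%, beside 11.7% of all genes). With the mean of all probe sets of a gene the sign turned for Lepr (-0.114), Insr (0.0246), Foxo1 (-0.0011), Socs7 (0.0100) and Creb1 (0.047). Foxo1 was at -0.0042 with sex as a covariate. With the replicate number as a block (arrays numbered 1 to 3), Ptpn1 1438670_at was at 0.022 and Foxo1 1416981_at at 0.025, and with repeated quantile normalization at 0.0086 and 0.00021. With wild-type arrays 2 and 3 left out, Lepr 1425644_at was at 0.213, Stat3 1426587_a_at at -0.0043 and Pomc at -0.105. The causes were not tested. Leaving out each array in turn gave 0 calls throughout. It moved Foxo1 between -0.044 and 0.054, Lepr 1425644_at between -0.215 and 0.089, Jak2 1421065_at between -0.018 and 0.038, Stat3 1459961_a_at between -0.135 and 0.112, Socs3 1455899_x_at between -0.017 and 0.35 and 1456212_x_at between -0.022 and 0.080, Ptpn1 1438670_at between -0.051 and 0.026, Insr 1450225_at between -0.053 and 0.135, Foxo1 1416981_at between -0.065 and 0.025, Igf1r 1446303_at between -0.103 and 0.139 and Pomc between -0.0022 and 0.41. All 7 of these fits kept the sign of the brightest probe set of each member but Foxo1. Lepr and Socs3 have no value at gene level once the dimmer probe sets, those under the median level, are dropped, since their probe sets fall there.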
